A study of Homo sapiens with 6 samples.

Results

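The collagen genes examined here were all 44 protein-coding genes, of 58735 genes in the expression table, whose symbol is COL, a type number, A and a chain number. They were read as 11 fibrillar collagens, 6 basement membrane collagens of type IV and 27 of other types, the last divided by structure into 5 type VI chains, 10 FACIT collagens, 4 transmembrane collagens, 3 network-forming collagens of types VIII and X, 2 multiplexins, and type VII with 2 remaining chains. Their expression was compared in MG63, an established human osteosarcoma cell line, with and without silencing of FUBP1, a nuclear protein that binds single-stranded DNA and RNA and regulates transcription. The study addressed resistance of osteosarcoma cells to a platinum drug, and its RNA sequencing asked which transcripts depend on FUBP1. There were 2 groups of 3 samples, siFUBP1, transfected with small interfering RNA (siRNA) against FUBP1, and siMock, transfected with the negative control. All 6 samples were of 1 cell line, no drug is named in their labels, and by the study's methods RNA was taken 48 h after transfection. The labels do not say whether the samples of a group came from separate cultures, so the p-values measure only the spread between these samples, which may be technical.

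Collagens are secreted proteins of the extracellular matrix in which 3 alpha chains, alike or different, wind into a long helix. Fibrillar collagens such as type I, the main protein of bone, assemble outside the cell into banded fibrils, whereas type IV chains form the sheet-like network of basement membranes. FACIT collagens sit on the surface of fibrils, type VI forms beaded filaments, transmembrane collagens are anchored in the cell membrane, and multiplexins lie in basement membrane zones. Chains are hydroxylated and folded in the endoplasmic reticulum, exported in large carriers, trimmed of their propeptides and cross-linked by lysyl oxidases, and cells of the osteoblast lineage are known for making large amounts of type I collagen.

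The 6 libraries held between 16309900 and 17484313 counts on genes. Values are given as CPM, the usual count scaled to library depth, here after TMM scaling, or, where genes of different length are compared, as the deposited FPKM, which is scaled to both depth and gene length. FUBP1 itself was at 237, 255 and 274 CPM in siMock and at 44.4, 43.4 and 53.0 CPM in siFUBP1. The groups did not overlap, and 18.4% of the FUBP1 transcript level was left (log2 fold change -2.44 ± 0.090 SE).

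There were 3 siRNAs against FUBP1 in the study, and which of them the sequenced samples received is not stated in the sources used here. Their guide strands are shown because they define the perturbation, with the seed, bases 2 to 8 from the 5′ end, in capitals.
RNAi#1: uAAACUGAaugcgaacacc
RNAi#2: uAAGAGGUuugucagcacc
RNAi#3: uUUCUUCUaugaguugccg

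The bone origin given in the labels was not borne out by its markers. Of 8 osteoblast markers, 6 had under 30 counts in every sample, IBSP and DMP1 were at 0, and SP7 and ALPL had at most 2 and 1 counts. The most abundant was PHEX, and the summed FPKM of the list was 0.930, 0.868 and 0.843 in siMock and 2.49, 1.90 and 2.16 in siFUBP1. RUNX2, a transcription factor of the osteoblast lineage, was at 0.490, 0.471 and 0.384 CPM in siMock and 4.32, 5.59 and 2.23 CPM in siFUBP1. It was the 1 osteoblast marker called higher, where 8.16% of all genes tested were, and it passed the filter on low counts only through siFUBP1, where it was higher. The epithelial markers KRT8 and KRT18, keratins of simple epithelia, were abundant, at 285.8 and 216.6 FPKM in siMock and 143.4 and 137.8 FPKM in siFUBP1, whereas KRT5 was at 0 and CDH1 was near 0.15 FPKM. EPCAM, an adhesion molecule of epithelia, was at 4.04 and 4.61 CPM and did not pass (log2 fold change 0.19, adjusted p = 0.413). Of the 7 epithelial markers 4 had under 30 counts in every sample, and the list, nearly all of it KRT8 and KRT18, summed to 540.8, 496.1 and 475.5 FPKM in siMock and to 287.6, 270.6 and 291.2 FPKM in siFUBP1, and 1 of 7, KRT8, was called lower, where 9.13% of all genes tested were. That call held in 7 of 17 alternatives and was lost with the GC and length correction (log2 fold change -0.80). The exons of KRT8 and KRT18 share 525 bases, where their reads cannot be told apart. Of the chondrocyte and endothelial markers, 8 of 9 and 5 of 6 had under 30 counts in every sample. Chondrocyte markers, led by SNORC, summed to 1.95, 1.82 and 1.83 FPKM in siMock and 2.345, 2.55 and 2.342 FPKM in siFUBP1, with ACAN, CNMD and EPYC at 0. Of the 2 that were tested, SNORC was higher by adjusted p alone, without overlap (log2 fold change 0.84, adjusted p = 1.475e-04). With the GC and length correction SNORC was called higher (adjusted p = 1.632e-06). MATN3, on at most 21 counts, reached the filter limit in every siMock sample but in 1 siFUBP1 sample. It was called lower, in the direction opposite to SNORC, where 9.13% of all genes tested were. That call held in 11 of 16 alternatives and was lost with DESeq2 (adjusted p = 0.0959). Endothelial markers, led by CDH5, summed to 0.771, 0.938 and 0.628 FPKM in siMock and 0.402, 0.467 and 0.523 FPKM in siFUBP1. The osteoblast, epithelial, chondrocyte and endothelial sums were each without overlap between the groups, and their part in the collagen differences was not tested.

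Of the 44 collagen genes, 26 had enough counts to be tested. The remaining 18 had at most 12 counts in any sample, and 5 of them, COL1A2, COL6A3, COL9A1, COL19A1 and COL22A1, had 0 counts in all 6 samples, which at 3 counts of the library total allows a level of up to 0.172 to 0.184 CPM, depending on the sample. With no filter beyond 1 count, 9 collagen genes were called lower in place of 7, where 5.41% of all genes were, and the further ones were COL6A6, with 11, 7 and 5 counts in siMock and 2, 1 and 2 in siFUBP1, and COL21A1, with 4, 5 and 8 counts and 1, 0 and 1. Both rest on very few reads. Passing the filter on low counts was itself tied to the group for some members. COL20A1 reached the limit of 0.599 CPM in 0 of 3 siMock samples and COL10A1 in 0 of 3 siFUBP1 samples, COL17A1 reached it in 1 siMock sample, COL26A1 in 2 siMock samples, COL6A2 in 2 siFUBP1 samples, and COL13A1 in 2 samples of each group.

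In counts as deposited, not corrected for GC content or gene length, collagen transcripts as a whole took a smaller part of the siFUBP1 libraries. They made up 0.440%, 0.456% and 0.417% of all counts in siMock and 0.308%, 0.328% and 0.307% in siFUBP1. Every siMock share lay above every siFUBP1 share, and the means, 0.438% ± 0.020 (SD, n = 3) and 0.314% ± 0.012 (SD, n = 3), differed by more than the spread between samples (two-sided exact permutation test, p = 0.1, the smallest that 3 against 3 samples allow). By group means, COL7A1 held 26.1% of collagen counts in siMock and 19.5% in siFUBP1, COL4A1 8.0% and 14.3%, and COL4A2 22.9% and 27.15%, so that COL7A1 came first in siMock and COL4A2 in siFUBP1. Because the libraries came from whole cultures, fewer cells with a transcript and less RNA per cell cannot be told apart.

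Genes were tested with edgeR's quasi-likelihood test across all 16116 genes with enough counts and called when the Benjamini-Hochberg adjusted p was below 0.05 and the level differed by more than 1 on the log2 scale. Of the 26 tested collagen genes, 4 were called higher and 7 lower in siFUBP1, together 42.3%, where 17.3% of all tested genes were called, 8.16% higher and 9.13% lower. By adjusted p alone, 5 rose and 15 fell, together 76.9%, where 60.2% of all tested genes passed, 30.1% in each direction. The groups did not overlap for 21 of 26 collagen genes, or 80.8%, against 63.9% of all 16116. Their log2 fold changes had a median of -0.32, beside 0.002 over the whole fit.

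**Figure D1:**
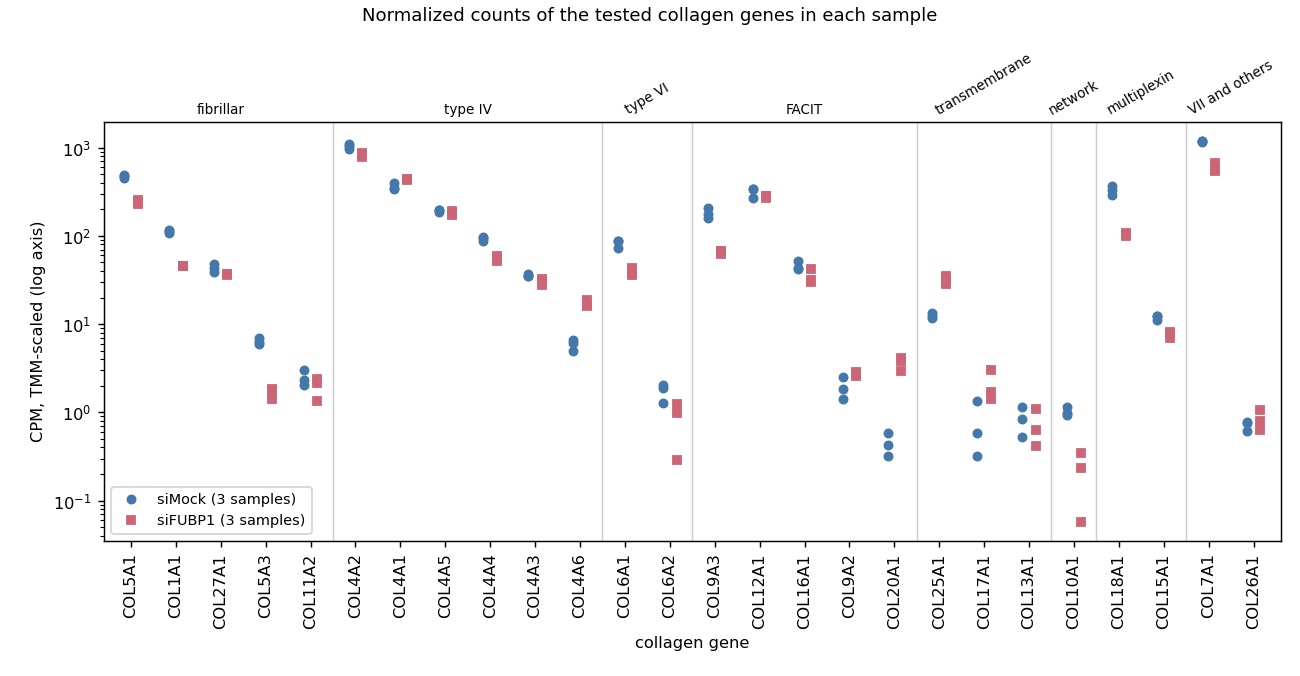
CPM of the 26 tested collagen genes on a log axis, by structural class; each point is 1 sample, circles for siMock and squares for siFUBP1. The 3 siFUBP1 points lie apart from the 3 siMock points for 21 of the 26 genes, below them for COL7A1, COL5A1, COL18A1 and COL9A3 and above them for COL4A1, COL4A6, COL25A1 and COL20A1.

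The collagen transcripts were richer in G and C than most, with a median of 61.2% against 48.95% for all tested genes, and longer, with a median gene length of 8934 against 4326 bases. After removal of a smooth trend on GC content and gene length from each sample's counts, 3 collagen genes were called lower, COL18A1, COL5A3 and COL10A1, and the same 4 higher, where 8.29% and 8.13% of all tested genes were called. By adjusted p alone 6 collagen genes then rose and 10 fell, together 61.5%, beside 62.0% of all tested genes. The median of the collagen genes was then -0.05, and that of all tested genes 0.02. The loss from 7 to 3 lower calls came from COL1A1, COL6A1, COL6A2 and COL9A3, whose corrected values were -0.94, -0.70, -0.61 and -0.98. With limma on log2(FPKM + 1), which compresses the fold of genes of low FPKM, no collagen gene was called higher and 3 were called lower, COL1A1, COL9A3 and COL18A1, while 5 rose and 13 fell by adjusted p alone. The share of all tested genes in that fit is not given here, so these counts have no background beside them.

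**Figure D2:**
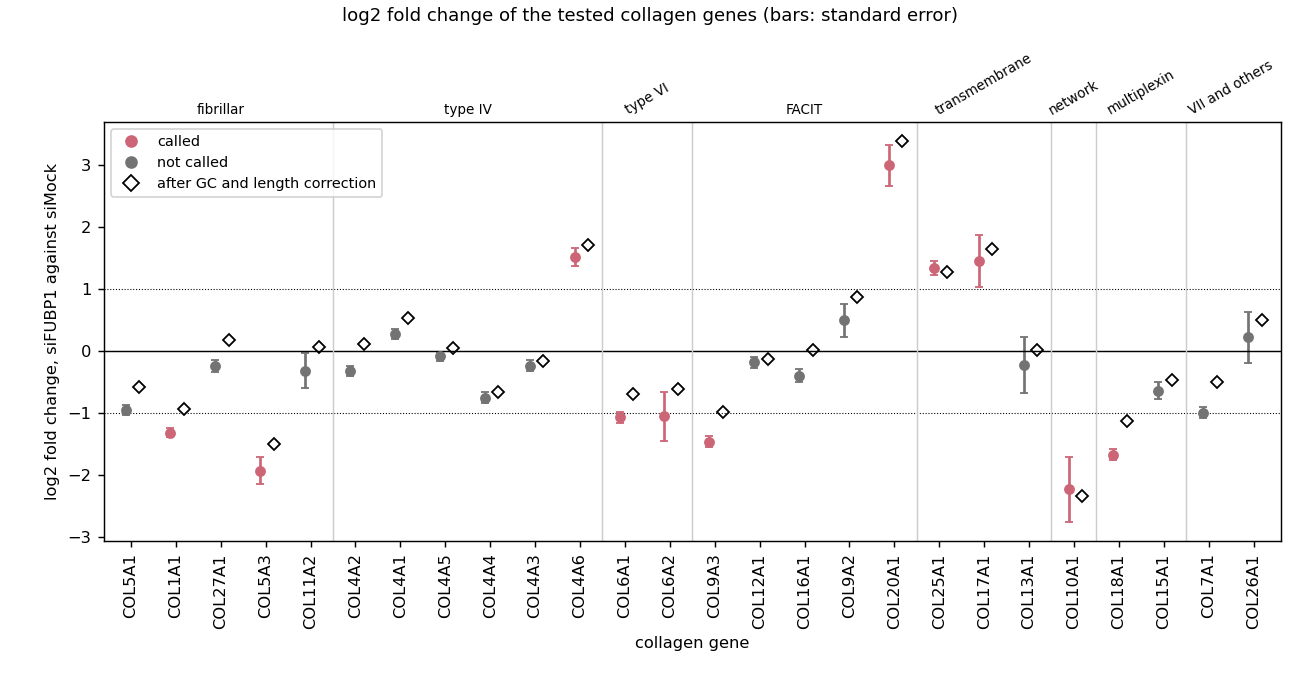
log2 fold change of siFUBP1 against siMock for the 26 tested collagen genes, by class, with bars for the standard error; filled points are called or not called genes, open diamonds the values after GC and length correction, and dotted lines the fold threshold. The correction raised most lower values, COL7A1 from -0.99 to -0.50 for example, and left COL4A6, COL25A1, COL17A1 and COL20A1 above 1.

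Among the fibrillar collagens, 5 of 11 were tested, 2 were called lower and none higher, 4 fell by adjusted p alone, and the median log2 fold change was -0.95. Beside them, 9.13% of all tested genes were called lower and 30.1% were lower by adjusted p alone. After the GC and length correction only COL5A3 was still called, and COL27A1 and COL11A2 turned to 0.17 and 0.07. COL5A1 (chr9:134641774-134844843), the type V chain that co-assembles with type I and limits fibril width, was the most abundant fibrillar collagen. It was measured at 490, 472 and 454 CPM in siMock and at 249, 230 and 254 CPM in siFUBP1. All siFUBP1 samples lay far below all siMock samples, and COL5A1 was 1.93-fold lower (log2 fold change -0.95 ± 0.077 SE, adjusted p = 6.85e-11), just short of the fold threshold, and at -0.59 after GC and length correction.

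COL1A1 (chr17:50183289-50201632) encodes the chain of which type I collagen holds the most copies. Its level was 114, 118 and 108 CPM in siMock and 45.5, 45.7 and 45.4 CPM in siFUBP1. The siFUBP1 samples were nearly equal and all far below siMock, a 2.49-fold lower level (log2 fold change -1.31 ± 0.079 SE, adjusted p = 1.83e-13), which moved to -0.94 and out of the called range with the GC and length correction. COL1A2, the partner chain of COL1A1 in ordinary type I collagen, had no counts in any library. Per kilobase of gene, COL1A1 was thus at least 291-fold above COL1A2 even in the sample with the fewest COL1A1 counts, 769, with a floor of 3 counts for COL1A2 in each library. COL3A1, the type III chain common in soft connective tissue, had at most 2 counts.

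COL5A3 (chr19:9959561-10010471), a rarer type V chain, had 6.99, 6.30 and 5.96 CPM in siMock and 1.42, 1.85 and 1.78 CPM in siFUBP1. It was low in both groups, without overlap, and was 3.8-fold lower in siFUBP1 (log2 fold change -1.93 ± 0.21 SE, adjusted p = 1.81e-08). After the GC and length correction it was at -1.51 and still called. Its exons share 270 bases, 4.0% of its exonic length, with a gene on the opposite strand, whose reads cannot be told apart in a library that does not keep the strand. Of the others, COL27A1 was at 43.5 CPM in siMock and 36.8 CPM in siFUBP1, lower by adjusted p alone (adjusted p = 0.027, log2 fold change -0.24), but its direction turned with the correction (0.17), and it did not pass with DESeq2, limma or no filter on low counts, nor without siMock replicate 2 or siFUBP1 replicate 1 or 2, with an adjusted p of up to 0.22. COL11A2 did not pass (log2 fold change -0.32 ± 0.28 SE, adjusted p = 0.338, and 0.07 after the correction), and COL2A1, COL5A2, COL11A1 and COL24A1 were not tested.

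All 6 type IV genes were tested, 1 was called higher and none lower, and by adjusted p alone 2 rose and 3 fell, with a median log2 fold change of -0.16. The called share, 16.7%, was near the 17.3% of all tested genes, and 30.1% of all passed in each direction by adjusted p alone. After the GC and length correction COL4A1 and COL4A6 were higher by adjusted p alone and COL4A4 lower, while COL4A2 and COL4A3 no longer passed (adjusted p = 0.126 and 0.101). The type IV genes lie in pairs, head to head on opposite strands, with COL4A1 and COL4A2 on chromosome 13, COL4A4 and COL4A3 on chromosome 2 and COL4A6 and COL4A5 on chromosome X. RefSeq places their transcript starts 127, 419 and 380 bases apart (GRCh38.p14), with a further COL4A6 start 1416 bases from that of COL4A5. Windows from between the 2 starts of a pair are shown because the members of a pair share this stretch and, as given further on, differed in their log2 fold changes. Capitals mark a CCAAT box (ATTGG on the other strand) or a GC box (GGGCGG, or CCGCCC on the other strand). Those of the first pair, at chr13:110307169-110307193 and chr13:110307209-110307234, are read on the strand of either gene, and those of the other pairs, at chr2:227164497-227164522 and chrX:108439589-108439613, on the strand of the named gene, the last with a second, lower-case CCAAT match on the opposite strand.
COL4A2 CCAAT, plus strand: gccgagctccCCAATttgttggcgc
COL4A1 CCAAT, minus strand: gcgccaacaaATTGGggagctcggc
COL4A2 GC box, plus strand: ggcggtgcgcGGGCGGcgcctcaaag
COL4A1 GC box, minus strand: ctttgaggcgCCGCCCgcgcaccgcc
COL4A3 GC box, plus strand: gggggtatgaGGGCGGgacctgagcc
COL4A6 CCAAT, minus strand: aggctcagttCCAATctcattggtg

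Searched on both strands in the 250 bases before to 50 after each RefSeq start, CCAAT was found in 31.8% of the 44 promoters listed for 32 of the collagen genes and in 34.6% of all 35116 promoters, and GGGCGG in 54.5% and 45.0%. TATAAA was found in 18.2% and 11.5%. These letters describe the sequence and are not evidence that a factor binds there.

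COL4A2 (chr13:110305812-110513209), which with COL4A1 makes the common basement membrane trimer, was at 1038, 1107 and 962 CPM in siMock and at 858, 840 and 782 CPM in siFUBP1. It was lower in every siFUBP1 sample, by 1.25-fold (log2 fold change -0.33 ± 0.082 SE, adjusted p = 1.33e-03), but its value turned to 0.12 after the GC and length correction. COL4A1 (chr13:110148963-110307233) was at 342, 396 and 350 CPM in siMock and at 433, 441 and 435 CPM in siFUBP1. All siFUBP1 samples were higher, by 1.20-fold (log2 fold change 0.27 ± 0.079 SE, adjusted p = 4.73e-03), and the corrected value was 0.53. Neither gene reached the fold threshold.

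Within each library, the log2 ratio of COL4A1 to COL4A2 counts was -1.6, -1.48 and -1.46 in siMock and -0.99, -0.93 and -0.85 in siFUBP1. The ratio was higher in every siFUBP1 sample, by 0.60 on the log2 scale or 1.51-fold between the group means (two-sided exact permutation test, p = 0.1, the smallest possible, and 0.2 adjusted over the 2 planned pairs for which a ratio could be formed, COL1A2 being at 0). The other pairs were added after their values had been seen. COL4A3 to COL4A4 moved by 0.52, from -1.39 ± 0.12 (SD, n = 3) to -0.88 ± 0.12 (SD, n = 3), and COL4A6 to COL4A5 by 1.6, from -5.01 ± 0.25 (SD, n = 3) to -3.41 ± 0.054 (SD, n = 3). Neither of these pairs overlapped between the groups. The ratios of all 3 pairs hold no GC and length correction. With that correction COL4A1 and COL4A2 had log2 fold changes of 0.53 and 0.12, which lie closer together than the uncorrected 0.27 and -0.33.

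COL4A6 (chrX:108155607-108439497), a chain of the basement membranes of smooth muscle and some epithelia, was at 6.68, 5.00 and 6.15 CPM in siMock and at 15.9, 16.4 and 18.6 CPM in siFUBP1. It was the only called type IV gene, higher in all siFUBP1 samples by 2.86-fold (log2 fold change 1.51 ± 0.14 SE, adjusted p = 9.77e-10). Its neighbour COL4A5, a chain of the kidney filter, was at 191 CPM in siMock and 180 CPM in siFUBP1, with overlapping groups (log2 fold change -0.09 ± 0.075 SE, adjusted p = 0.321, and 0.05 after the GC and length correction). COL4A4 fell from 93.5 to 55.5 CPM (log2 fold change -0.75, adjusted p = 1.69e-08) and COL4A3 from 35.6 to 30.2 CPM (log2 fold change -0.23, adjusted p = 0.031), both also chains of the kidney filter. COL4A3 no longer passed with DESeq2, limma, the GC and length correction or no filter on low counts, nor without siMock replicate 1 or 2 or siFUBP1 replicate 1 or 2, with an adjusted p of up to 0.171. Per kilobase of gene, COL4A1 made up 22.7% ± 0.77 (SD, n = 3) of type IV transcript in siMock and 30.1% ± 0.36 (SD, n = 3) in siFUBP1, COL4A2 49.6% ± 1.4 and 43.6% ± 1.8, COL4A4 8.58% ± 0.44 and 5.61% ± 0.43, and COL4A6 0.595% ± 0.11 and 1.86% ± 0.17 (SD, n = 3 each). The shares of these 4 genes, which hold no GC and length correction, did not overlap between the groups. COL4A3 and COL4A5 had overlapping shares in the 2 groups.

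**Figure D3:**
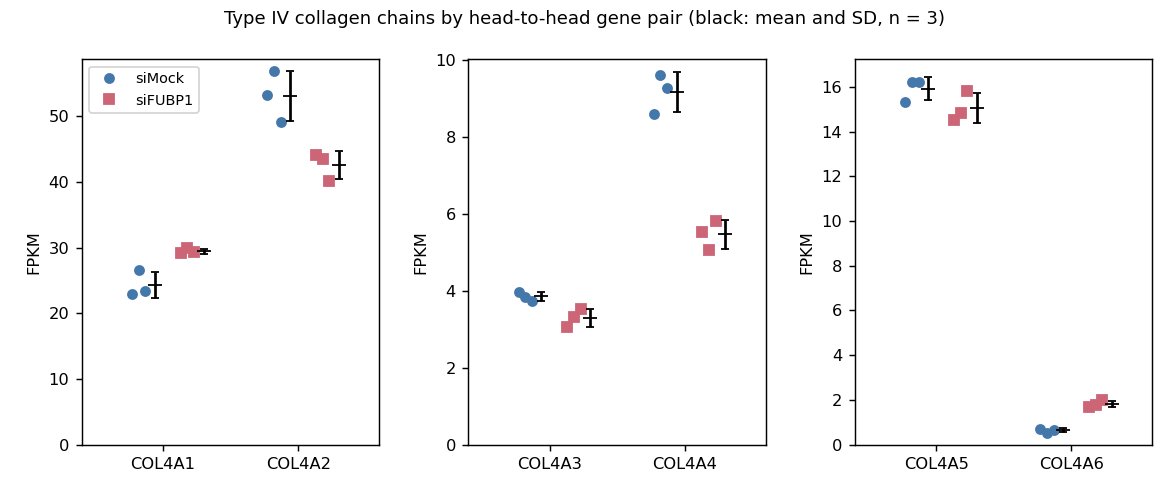
FPKM of the 6 type IV genes in each sample, 1 panel for each head-to-head pair, with black bars for the mean and SD of 3 samples. In these values, which hold no GC and length correction, the members of each pair moved unequally. COL4A1 was up with COL4A2 down, COL4A4 down more than COL4A3, and COL4A6 up beside an overlapping COL4A5. With the correction COL4A2 had a log2 fold change of 0.12, and COL4A2 and COL4A3 no longer passed by adjusted p.

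Both tested type VI chains were called lower, where 9.13% of all tested genes were, COL6A1 on firm and COL6A2 on few counts. Neither was called after the GC and length correction. COL6A1 (chr21:45981737-46005050) was at 87.4, 88.4 and 72.7 CPM in siMock and at 43.0, 39.3 and 36.1 CPM in siFUBP1. The groups were well apart, with a 2.10-fold lower level (log2 fold change -1.07 ± 0.093 SE, adjusted p = 2.22e-10) that moved to -0.70, no longer called, with the GC and length correction. COL6A2 (chr21:46098097-46132849) had 21, 32 and 32 counts in siMock and 21, 5 and 17 counts in siFUBP1. In CPM the groups were just apart, at 1.29 to 2.05 and 0.288 to 1.24, and the call (log2 fold change -1.05 ± 0.40 SE, adjusted p = 0.0247) held in 8 of 16 alternatives. It was lost with DESeq2, with limma at either pseudocount, with the GC and length correction, with or without the replicate block, and without siMock replicate 2 or 3 or siFUBP1 replicate 2 (-0.99, -0.93 and -0.64). The log2 ratio of COL6A1 to COL6A2 was 5.57 ± 0.46 (SD, n = 3) in siMock and 5.74 ± 1.1 (SD, n = 3) in siFUBP1, with overlapping groups (two-sided exact permutation test, p = 0.9). COL6A3, the long chain of the ordinary type VI trimer, was at 0 counts in every library, and COL6A5 and COL6A6 were not tested.

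The FACIT group held 1 gene called in each direction among 5 tested of 10, where 8.16% of all tested genes were called higher and 9.13% lower. COL9A3 (chr20:62816244-62841159), a chain of the type IX collagen of cartilage, was the most abundant per kilobase of gene in siMock, at 36.9 FPKM. It had 205, 179 and 159 CPM in siMock and 66.8, 67.4 and 62.9 CPM in siFUBP1. The siFUBP1 samples were close together and all below siMock, 2.75-fold lower (log2 fold change -1.46 ± 0.087 SE, adjusted p = 1.62e-13), and the corrected value, -0.98, lay just inside the fold threshold. Its partner chains were not called, as COL9A2 was at 1.93 CPM in siMock and 2.73 CPM in siFUBP1 (log2 fold change 0.49, adjusted p = 0.115) and COL9A1 had 0 counts. After the correction COL9A2 was at 0.86 and passed by adjusted p (5.87e-03), in the direction opposite to COL9A3.

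COL20A1 (chr20:63293186-63334851), a little studied FACIT collagen, had 7, 10 and 5 counts in siMock and 69, 66 and 52 counts in siFUBP1. This was 0.429, 0.589 and 0.320 CPM against 4.09, 3.81 and 2.98 CPM, with all siFUBP1 samples higher, and the fitted difference was 7.95-fold (log2 fold change 2.99 ± 0.33 SE, adjusted p = 2.04e-08). It passed the filter on low counts only through siFUBP1. COL12A1, which binds type I fibrils, was at 317 ± 40 CPM in siMock and 278.5 ± 7.0 CPM in siFUBP1 (SD, n = 3), with overlap and no call (adjusted p = 0.0632), and COL16A1 at 45.6 and 34.6 CPM was lower by adjusted p alone (log2 fold change -0.40, adjusted p = 3.48e-03), at 0.02 after correction. COL14A1, with at most 6 counts, was not tested.

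Of the transmembrane collagens, 2 of 3 tested were called higher and none lower, and by adjusted p alone the same 2 rose and none fell. Of all tested genes, 8.16% were called higher and 30.1% were higher by adjusted p alone. COL25A1 (chr4:108808725-109302752), a membrane collagen known from neurons and amyloid plaques, was at 13.5, 12.4 and 11.7 CPM in siMock and at 28.6, 31.3 and 35.2 CPM in siFUBP1. It was 2.53-fold higher with no overlap (log2 fold change 1.34 ± 0.11 SE, adjusted p = 8.95e-11), and at 1.27 after the GC and length correction. COL17A1 (chr10:104031286-104085957), the hemidesmosome collagen of skin, had 22, 10 and 5 counts in siMock and 29, 53 and 25 counts in siFUBP1. At 0.320 to 1.35 CPM and 1.43 to 3.06 CPM the groups were just apart, and the call (log2 fold change 1.45 ± 0.42 SE, adjusted p = 4.50e-03) was lost without siFUBP1 replicate 2 (1.06) and with limma at either pseudocount, while without siMock replicate 1 it was 2.15. COL13A1 did not pass (adjusted p = 0.679), and COL23A1 was not tested.

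Of the network-forming collagens only COL10A1 (chr6:116118923-116158747), the collagen of hypertrophic cartilage, was tested, through siMock alone. It had 16, 16 and 18 counts in siMock and 4, 1 and 6 counts in siFUBP1, or 0.980, 0.942 and 1.15 CPM against 0.237, 0.0577 and 0.344 CPM. All siFUBP1 samples were lower, and the fit gave a log2 fold change of -2.23 ± 0.53 SE (adjusted p = 6.83e-04). COL8A1 and COL8A2, the type VIII chains, had at most 2 and 4 counts in any sample and were not tested.

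Both multiplexins fell. COL18A1 (chr21:45405137-45513720), the basement membrane collagen from which endostatin is cut, was at 368, 330 and 292 CPM in siMock and at 100.1, 107 and 104 CPM in siFUBP1. No siFUBP1 sample came near the lowest siMock sample, and COL18A1 was 3.18-fold lower (log2 fold change -1.67 ± 0.085 SE, adjusted p = 8.05e-15). It was the 1 collagen gene called in all 17 alternative fits, with values from -1.76 to -1.13, the latter after the GC and length correction. Its exons share 1401 bases, 16.4% of its exonic length, with SLC19A1 on the opposite strand. COL15A1 was lower by adjusted p alone, at 12 CPM in siMock and 7.69 CPM in siFUBP1 (log2 fold change -0.64, adjusted p = 2.81e-04).

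COL7A1 (chr3:48564073-48595267), which forms the anchoring fibrils that tie basement membrane to the tissue beneath, had the highest level of all collagen genes, 105.6 FPKM in siMock and 53.3 FPKM in siFUBP1. It was measured at 1195, 1190 and 1163 CPM in siMock and at 546, 660 and 576 CPM in siFUBP1. All siFUBP1 samples were near 50.2% of the siMock level (log2 fold change -0.99 ± 0.085 SE, adjusted p = 1.56e-10), which lay just inside the fold threshold. The value moved to -0.50 with the GC and length correction and past the threshold without siMock replicate 3 (-1.01) or siFUBP1 replicate 2 (-1.07). COL26A1 did not pass (adjusted p = 0.672), and COL28A1 was not tested.

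In uncorrected sums over each class, transcript per kilobase was lower in every siFUBP1 sample for all classes but the transmembrane collagens. Fibrillar collagens summed to 57.5 ± 2.2 FPKM in siMock and 29.6 ± 1.0 FPKM in siFUBP1 (SD, n = 3), FACIT collagens to 67.4 ± 3.1 and 40.4 ± 1.2 FPKM, and multiplexins to 40.0 ± 4.4 and 13.2 ± 0.34 FPKM. Type IV, at 107 ± 6.0 and 97.7 ± 0.94 FPKM, had the smallest relative difference, and in siFUBP1 it was the largest class, where in siMock it had been level with type VII and the remaining chains at 105.8 ± 1.7 FPKM. Transmembrane collagens summed to 1.69 ± 0.23 FPKM in siMock and 4.03 ± 0.41 FPKM in siFUBP1, without overlap. These sums were not tested and hold no GC and length correction. With that correction COL4A1 and COL4A2, the 2 most abundant type IV genes, had log2 fold changes of 0.53 and 0.12. The lower type IV sum is therefore stated for uncorrected values only. Among the FACIT collagens COL9A3 was the most abundant in siMock, at 36.9 FPKM beside 25.1 FPKM for COL12A1, and COL12A1 in siFUBP1, at 22.2 FPKM beside 13.5 FPKM for COL9A3.

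**Figure D4:**
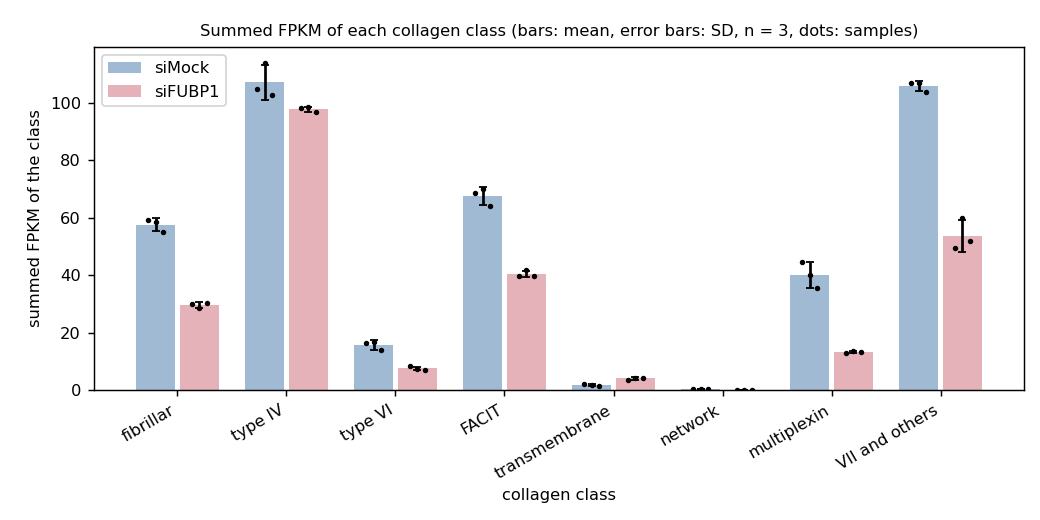
Summed FPKM of each collagen class, with bars for the mean of 3 samples, error bars for the SD and dots for the samples. The bars hold no GC and length correction. Those of siFUBP1 are lower in 7 classes and higher for the transmembrane collagens. Type IV, at 107 and 97.7 FPKM, shows the smallest relative difference. With the correction its 2 most abundant genes, COL4A1 and COL4A2, had log2 fold changes of 0.53 and 0.12.

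The genes that make and handle collagen were read from 8 lists of 70 genes, of which 52 were tested. Of these, 3 were called higher and 6 lower, or 17.3%, the same share as among all tested genes, and by adjusted p alone 22 rose and 18 fell, or 76.9%, beside 60.2% of all tested genes. In the counts by list that follow, which use adjusted p alone, the share of all tested genes was 30.1% in each direction, and after the GC and length correction 5154 of the 16116 tested genes were higher and 4835 lower. Enzymes and chaperones of prolyl hydroxylation and folding rose more often than they fell, 9 against 2 of 14, with a median log2 fold change of 0.64, and 11 against 2 after the GC and length correction. FKBP14, a prolyl isomerase of the endoplasmic reticulum, was at 35.7, 28.8 and 32.9 CPM in siMock and at 119.6, 122 and 139 CPM in siFUBP1, well apart (log2 fold change 1.97 ± 0.092 SE, adjusted p = 1.47e-15), and its exons share 373 bases with a gene on the opposite strand. P4HA3, a catalytic subunit of prolyl hydroxylase, was also called higher (log2 fold change 1.09, adjusted p = 1.69e-10), and P4HB, the most abundant gene of the list, did not pass (0.07, adjusted p = 0.448) but was higher with the correction (0.30, adjusted p = 4.31e-04).

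Of 8 export genes, 7 rose by adjusted p alone and none fell, and after the GC and length correction 6 rose and 1 fell. KLHL12, which helps enlarge carriers for procollagen, rose from 33.9 ± 3.0 to 86.8 ± 4.1 CPM (SD, n = 3, log2 fold change 1.36 ± 0.088 SE, adjusted p = 7.64e-13), and SEC23A, the most abundant, did not pass (adjusted p = 0.607) but was lower with the correction (log2 fold change -0.17, adjusted p = 0.0176), where SCFD1 no longer passed (adjusted p = 0.173). Of the lysyl hydroxylation and glycosylation genes 3 of 4 tested rose and COLGALT1 fell (log2 fold change -0.39, adjusted p = 4.75e-05, and -0.19 after the correction). By FPKM COLGALT1 was the most abundant of them in siMock, at 41.4 beside 24.3 for PLOD2, and the 2 were close in siFUBP1, at 31.7 and 32.2.

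In the lists of genes that act outside the cell or at its surface, more genes fell than rose by adjusted p alone, and the values given for them here are log2 fold changes. Among propeptide cleavage genes 1 of 5 tested rose and 3 fell, among them PCOLCE, the most abundant, at -0.40 (-0.15 after the GC and length correction) and ADAMTS14, called lower at -1.47 on few counts. Of 5 cross-linking genes 2 fell, LOXL1 at -1.16, called, and LOXL2, the most abundant, at -0.46 (-0.23 after the correction). The other 3 did not pass, the median of this list was -0.0005, and 30.1% of all tested genes fell by adjusted p alone. Only 3 of 12 fibril-binding proteins were tested. FMOD, at -1.96 on few counts, passed the filter on low counts only through siMock, where it was higher, and the other two, TNXB and FN1, fell, FN1, fibronectin, at -0.79 and TNXB at -0.83, the latter no longer passing after the GC and length correction (-0.30, adjusted p = 0.129). LUM was at 0 and SPARC, DCN and BGN had at most 7 counts. Collagen receptors fell in 5 of 7 tested and rose in 1. ITGB1, the beta chain shared by the collagen-binding integrins, was at 799, 834 and 922 CPM in siMock and at 364, 362 and 423 CPM in siFUBP1, without overlap (log2 fold change -1.15 ± 0.086 SE, adjusted p = 1.17e-11). DDR1 at -1.21 and MRC2 at -1.15, a collagen receptor kinase and an endocytic receptor, were also called lower, but together with LOXL1 they were not called after the GC and length correction, and the exons of LOXL1 and MRC2 share 335 and, at most, 676 bases with a gene on the opposite strand. Of 6 regulators of collagen transcription or mRNA, 1 rose and 2 fell, with SP1, the most abundant by FPKM in siMock, at -0.53 and CREB3L2, the most abundant in siFUBP1, at 0.82.

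**Figure D5:**
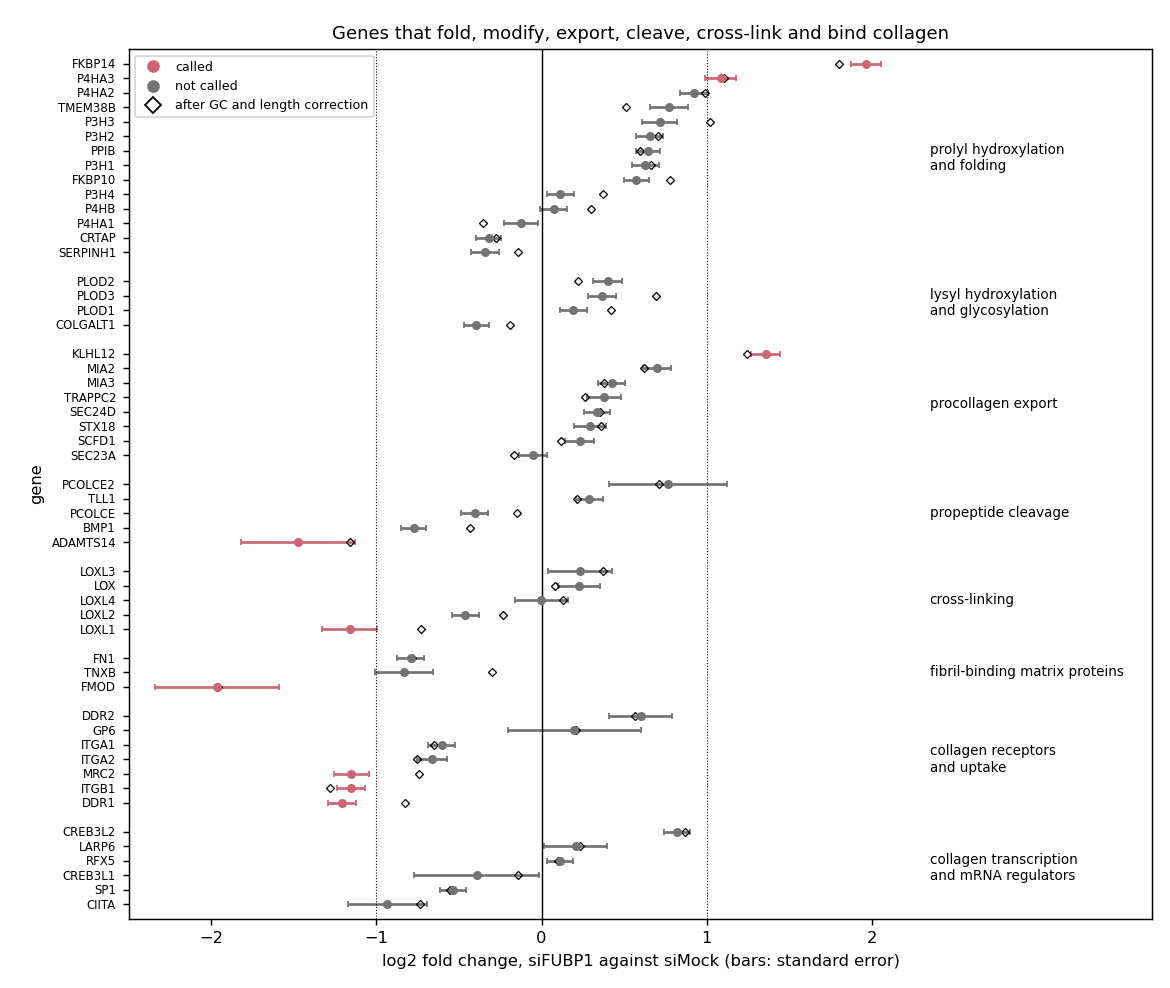
log2 fold change of siFUBP1 against siMock for the 52 tested genes of the 8 collagen-handling lists, with bars for the standard error, colour for called genes, open diamonds for values after GC and length correction and dotted lines at the fold threshold. The folding, lysyl and export lists lie mostly to the right of 0, and cleavage, fibril-binding and receptor genes mostly to the left.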

How the data were processed

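The deposited table gave raw counts and FPKM per gene for 6 poly-A libraries made with a kit that does not keep the strand. The labels name HISAT2 2.0.5, StringTie 1.3.3b, featureCounts 1.5.0-p3 and DESeq2 1.16.1, without roles. All 58735 gene positions matched GENCODE 29 (GRCh38). The authors' FPKM are normalised by gene length and library size by the authors, and their comparison columns (group means, fold changes, p-values) were not used. Counts as deposited were fitted with edgeR 4.0.16 (R 4.3.3; filterByExpr, TMM, glmQLFit robust, glmQLFTest, siFUBP1 against siMock, no covariate), adjusted over 16116 genes. DESeq2 1.42.0, limma 3.58.1 on log2(FPKM + 1) or log2(FPKM + 0.1), a GC and length offset (mgcv 1.9.3; GC content known for 99.96% of tested genes), other filters and scalings, a replicate block and leaving out each sample were the alternatives. The fits were tested on simulated data. Ratios and shares were compared by exact permutation tests. Replicate libraries differed beyond sampling noise (chi-square per gene at least 5.37), so none was counted as a duplicate. Counting floors cover counting error only. All collagen genes were named, with values in every sample for called genes and the 6 highest by mean FPKM, and in the other lists the called genes and the most abundant were named. The collagen genes, lists and markers were chosen with earlier results of these data known. Promoters came from RefSeq (GRCh38.p14) and guide strands from the study. A further marker list is not reported here.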

Additional observations from a re-analysis of the deposited data

How the results depend on the processing

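Lower counts of called collagen genes came from the GC content and gene length correction, which gave 3 lower calls (main value 7) and a median log2 fold change of -0.0545, and from limma on log2(FPKM + 1), which gave 0 higher and 3 lower calls and a median of -0.1864, and whose pseudocount shrinks the fold of genes of low FPKM by construction. A filter at a mean of 50 counts gave 2 higher calls, 3 genes higher by adjusted p alone and a median of -0.5147, with fewer genes tested. With a threshold of 0.58, 11 collagen genes were lower, and 12 collagen-handling genes were higher and 12 lower. At the main threshold of 1, collagen-handling genes called lower were 6 in the main fit, 2 with limma on log2(FPKM + 1) and 3 with the correction. No share of all tested genes is given here for limma, for the filter at 50 counts or for the threshold of 0.58. Nor is one given for the fits without 1 sample or for the replicate block together with the correction, so those counts have no background beside them. The replicate numbers did not pair the samples, since same-numbered samples had deviations correlated at -0.005, 0.017 and 0.123, and siMock 1 and 2 correlated best with another number. With the replicate block, 2793 genes were called in place of 2787 and the collagen calls stayed at 4 and 7, and with the block and the correction together, 3 collagen and 3 collagen-handling genes were lower and the median was -0.0568. Without 1 sample at a time, collagen calls ranged from 3 to 4 higher and 6 to 7 lower, genes past adjusted p alone from 4 to 6 higher and 12 to 15 lower, the median from -0.5046 (without siFUBP1 replicate 2) to -0.2778, collagen-handling calls from 3 to 4 higher and 6 to 7 lower, FUBP1 from -2.54 to -2.38, the log2 ratio of COL4A1 to COL4A2 from 0.55 to 0.63 and that of COL6A1 to COL6A2 from -0.4442 to 0.4931, reversed without siMock replicate 3 (-0.05688) or siFUBP1 replicate 2 (-0.4442). The share of counts on collagen genes, lower by 0.123 percentage points (difference -0.1234), differed by -0.134 to -0.1141 without 1 sample, by -0.06605 without the 3 most abundant genes and by -0.04008 as a share of summed FPKM. Signs turned in 29 of 1391 single-gene values, all in genes with main log2 fold changes from -0.40 to 0.21. With the correction, without and with the block, these were COL4A2 (0.1152 and 0.1153), COL4A5 (0.0486 and 0.0476), COL16A1 (0.0170 and 0.0130), COL27A1 (0.1715 and 0.1725), COL11A2 (0.0666 and 0.0560), COL13A1 (0.0206 and 0.0091) and LOXL4 (0.1330 and 0.1408). Among them COL4A2, COL16A1 and COL27A1 had been lower by adjusted p alone in the main fit. Leaving out a sample turned COL13A1 (0.0709 and 0.05, range -0.6675 to 0.0709), SEC23A (range -0.1129 to 0.0208), LOXL4 (0.1405 and 0.0543, range -0.0999 to 0.1405), GP6 (-0.0539 and -0.0109, range -0.0539 to 0.6014) and LARP6 (range -0.0516 to 0.3805). LOXL4, at -0.0005, also turned with no filter (0.0149), a mean of 50 counts (0.0035), DESeq2 (0.0078), limma (0.0108 and 0.0180), the block (0.0063) and protein-coding genes alone (0.0247). The cause of these changes was not tested beyond what is said of the pseudocount and the filter. Members with under 50 counts on average, COL6A2, COL10A1, COL17A1 and COL20A1 among them, rest on few reads.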

Other observations

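Antisense genes and pseudogenes that carry a collagen name lay outside the rule, and 8 of them were in the table. COL18A1-AS1, on the strand opposite COL18A1, was at 2.89 ± 0.76 CPM in siMock and 1.76 ± 0.19 CPM in siFUBP1 (SD, n = 3), lower by adjusted p alone in the edgeR fit (log2 fold change -0.71 ± 0.27 SE, adjusted p = 0.027) but not with DESeq2 (adjusted p = 0.101) or the GC and length correction (-0.47, adjusted p = 0.15), and at up to 0.176 over the alternatives. COL5A1-AS1 was at 0.753 ± 0.26 and 1.39 ± 0.40 CPM and did not pass (log2 fold change 0.87 ± 0.39 SE, adjusted p = 0.0541), but passed with the correction (1.03, adjusted p = 0.025). The type VI pseudogene COL6A4P1 was at 1.61 ± 0.44 and 1.92 ± 0.39 CPM (adjusted p = 0.489), and COL11A2P1 and COL6A4P2 had 0 counts. The exons of COL18A1-AS1 and COL5A1-AS1 share no bases with those of COL18A1 and COL5A1, and the libraries do not keep the strand.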
